A study of Mus musculus with 6 samples.

Results

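The 8 genes described here are the anterior Hox genes *Hoxa2*, *Hoxb2*, *Hoxb1*, *Hoxa3*, *Hoxb3*, *Hoxd3* and *Hoxb4* and the zinc-finger gene *Egr2*, also called *Krox20*. They were taken by symbol from a table of 24421 genes and are given in the order of their anterior limits in the hindbrain, and all 8 were in the table and passed the filter on low counts. RNAseq was done on heads of E9.0 mouse embryos, with 3 WT pools (*Snrpb* +/+; WT1, WT2 and WT3) and 3 mutant pools (*Snrpb* ncc+/-; Het1, Het2 and Het3), each made from 2 somite-matched heads of different litters. In the mutants a floxed copy of *Snrpb*, which encodes a core protein of the spliceosome, is deleted in the cells that express the Wnt1-Cre2 transgene, in the neural tube and neural crest, while *Snrpb* is intact in the rest of the head. The labels name CD1 in the titles and C57BL/6 as strain, and they do not state whether the WT embryos carried Cre. The comparison of WT with mutant heads asks which transcripts differ before morphological defects appear.

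Hox genes encode homeodomain transcription factors that are arranged in clusters in the order in which they are switched on along the body axis, so that genes at the 3′ end of a cluster reach furthest forward. The hindbrain is divided into rhombomeres, and the Hox genes named above have their anterior limits at boundaries between them. *Egr2* marks rhombomeres 3 and 5 and directly activates *Hoxa2* and *Hoxb2* there, *Hoxb1* maintains its own expression in rhombomere 4 together with Pbx cofactors, and neural crest cells that leave the hindbrain carry Hox expression into the pharyngeal arches. The forebrain, the midbrain and the first rhombomere express no Hox gene, so the level of these genes in a dissected head also depends on how much hindbrain, arch and trunk tissue it holds. In RNA of whole heads, fewer cells of a type and less RNA per cell cannot be told apart.

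The 8 genes lie in 4 places of the genome (mm10, Gencode M21 positions). *Hoxa2* (chr6:52162417-52164831) and *Hoxa3* (chr6:52169062-52213336) are on the minus strand of chromosome 6. *Hoxb4* (chr11:96318267-96321638), *Hoxb3* (chr11:96323326-96347930), *Hoxb2* (chr11:96350525-96354012) and *Hoxb1* (chr11:96365752-96368256) follow each other on the plus strand of chromosome 11. *Hoxd3* (chr2:74711927-74748442) and *Egr2* (chr10:67535475-67542188) are on plus strands. Some of the members share exonic bases with other transcripts, and whether counting used strand is not given in the sources used here. *Hoxd3* shares 62.3% of its exonic bases with *Hoxd4* and another transcript on the same strand, so reads there could be split or lost. On the opposite strand, 52.9% of *Hoxb3* and 27.3% of *Hoxb2* lie under *Hoxb3os*, and 25.4% of *Hoxa3* lies under antisense transcripts of the cluster. *Hoxb3os* was not among the counted symbols. No exonic base of *Hoxb1*, *Hoxb4* or *Egr2* is shared with another annotated gene.

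RefSeq gave start-site windows (GRCm38.p6) for 6 of the 8 genes, and none for *Hoxb2* and *Hoxb3*. Because Hox proteins bind DNA together with Pbx, the 250 bases upstream of each start were searched on both strands for TGATNNAT, a Pbx and Hox consensus. It was found upstream of *Hoxa2*, *Hoxb1* and 1 of the starts of *Egr2*, that is, in 3 of the 6 genes, and in 8.81% of all 27025 genes with a window. The *Egr2* match, TGATTAAT, lies 46 bases before a downstream start and within an exon of a longer transcript, so its window is not printed. The windows of *Hoxa2* (chr6:52164832-52165081, minus strand) and *Hoxb1* (chr11:96365508-96365751, plus strand, ended where the annotated exon begins) are printed because they hold the match, which is in capitals and begins 111 bases and 162 bases before the RefSeq start. They are read 5′ to 3′ in the direction of the gene, and a match is a description of the letters, not a measured site.
Hoxa2: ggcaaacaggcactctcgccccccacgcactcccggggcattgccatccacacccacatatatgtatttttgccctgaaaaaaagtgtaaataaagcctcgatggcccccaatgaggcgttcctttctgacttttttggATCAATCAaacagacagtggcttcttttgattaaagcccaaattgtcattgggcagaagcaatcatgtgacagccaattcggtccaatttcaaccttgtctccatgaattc
Hoxb1: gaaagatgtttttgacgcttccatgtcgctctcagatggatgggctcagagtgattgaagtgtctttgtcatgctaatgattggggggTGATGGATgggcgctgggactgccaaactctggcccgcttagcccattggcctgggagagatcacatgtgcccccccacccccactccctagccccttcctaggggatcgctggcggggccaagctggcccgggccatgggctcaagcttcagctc

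The libraries held 36378803 to 74909774 counted reads, and levels are given as CPM (counts scaled to the size of the library) after TMM scaling. *Snrpb* itself was at 427 ± 12.2 CPM (SD, *n* = 3) in WT and 426 ± 12.5 CPM (*n* = 3) in mutant heads (log2 fold change -0.00 ± 0.04 SE, edgeR adjusted *P* = 0.990), and cells without the deletion were part of every pool. The paper also reports a shorter *Snrpb* transcript from the deleted copy, whose reads a count per gene can include. This level therefore does not measure the loss of intact *Snrpb*. WT1 and WT2 stood apart from the other libraries in the 8 genes described here, though WT1 was often at an end of the range elsewhere too. WT1 had the lowest CPM of the 6 libraries in 8 of the 8. Over all 15584 tested genes it was the lowest in 24.6% and the highest in 24.7%. WT2 had the highest CPM in 4 of the 8, where it was the highest in 13.9% of all tested genes. Both were labelled WT, so the fold changes of the 8 genes are given with all libraries and without each of them. Fold changes of other named genes are given with all libraries only.

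No difference between WT and mutant heads was detected for any of the 8 genes. With all libraries, 0 of 8 passed an adjusted *P* of 0.05 with edgeR. With DESeq2, 0 of the 6 that were given an adjusted *P* passed (*Hoxa3* and *Hoxb4* were given none), where 0.00642% of the genes tested passed with edgeR (1 gene) and 0.651% with DESeq2 (84 genes). At an unadjusted *P* of 0.05 with edgeR the count was 0 of 8, against 8.43% of all genes, and the 3 mutant values lay outside the range of the 3 WT values in 0 of 8, against 15.2% of all genes. The log2 fold changes ran from -0.22 to 0.56 with a median of 0.28, beside a median of 0.00 over all tested genes, and 6 of the 8 were positive. The spread among WT pools was wide: the highest WT value was 1.56 to 32.5 times the lowest, depending on the gene, whereas among mutant pools it was 1.22 to 3.26 times.

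**Figure D1:**
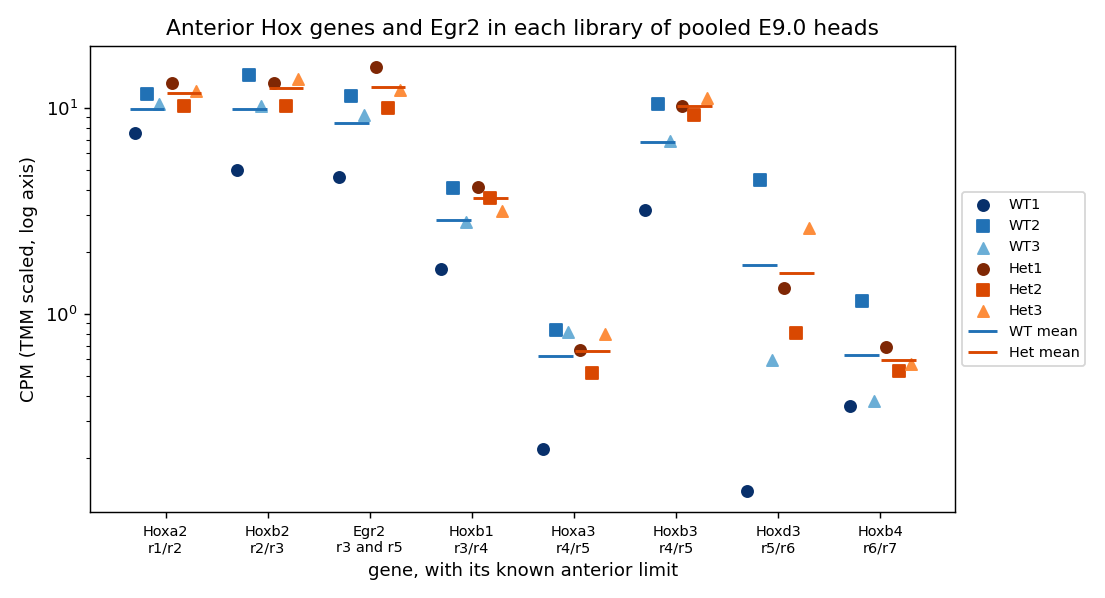
Levels of the 8 genes in each library, in CPM on a log axis, ordered by the anterior limit of each gene (r, rhombomere). Each point is 1 pool of 2 heads and the short lines are group means. The WT1 point is the lowest for every gene, and the WT2 point stands above the other libraries for *Hoxd3* and *Hoxb4*.

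*Hoxa2*, the Hox gene that reaches furthest forward and patterns the second pharyngeal arch, was at 7.50, 11.7 and 10.5 CPM in WT1, WT2 and WT3 and at 13.2, 10.2 and 12.1 CPM in Het1, Het2 and Het3. Het1 and Het3 lay above the 3 WT values, and Het2 lay below WT2 and WT3. The means were 9.89 ± 2.17 CPM (SD, *n* = 3) and 11.8 ± 1.52 CPM (*n* = 3), a log2 fold change of 0.24 ± 0.17 (SE, edgeR adjusted *P* = 0.724). It was the steadiest of the 8 genes across WT pools, with a highest value 1.56 times the lowest. Without WT1 its log2 fold change was 0.08 ± 0.12, and without WT2 it was 0.39 ± 0.17 (edgeR adjusted *P* = 0.880 and 0.437).

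*Hoxb2*, expressed from rhombomere 3 backwards and needed for facial motor neurons, was at 5.00, 14.5 and 10.2 CPM in WT pools and at 13.2, 10.2 and 13.9 CPM in mutant pools. WT pools held both the lowest and the highest value. The means were 9.91 ± 4.75 and 12.4 ± 1.92 CPM, a log2 fold change of 0.31 ± 0.38 (edgeR adjusted *P* = 0.867). Without WT1 its sign turned, to -0.01 ± 0.19, and without WT2 it was 0.70 ± 0.32 (edgeR adjusted *P* = 0.992 and 0.485).

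*Egr2*, the activator of both genes in rhombomeres 3 and 5, was at 4.61, 11.5 and 9.22 CPM in WT1, WT2 and WT3 and at 15.7, 9.998 and 12.3 CPM in Het1, Het2 and Het3. Het1 was the highest of all libraries and WT1 the lowest, and the ranges overlapped through WT2 and Het2. The group means were 8.43 ± 3.49 and 12.7 ± 2.90 CPM, and the log2 fold change of 0.56 ± 0.35 was the largest of the 8 (edgeR adjusted *P* = 0.706). It was 0.27 ± 0.21 without WT1 and 0.86 ± 0.34 without WT2 (edgeR adjusted *P* = 0.722 and 0.441).

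*Hoxb1*, the gene restricted to rhombomere 4 within the hindbrain, was at 1.65, 4.09 and 2.78 CPM in WT and at 4.14, 3.66 and 3.16 CPM in mutant pools. WT2 and Het1 were nearly level at the top of the range. Means of 2.84 ± 1.22 and 3.65 ± 0.493 CPM gave a log2 fold change of 0.33 ± 0.29 (edgeR adjusted *P* = 0.795), which was 0.06 ± 0.19 without WT1 and 0.71 ± 0.24 without WT2.

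The 3 members of paralog group 3 begin behind these genes. *Hoxb3* was at 3.19, 10.5 and 6.92 CPM in WT pools and at 10.2, 9.17 and 11.2 CPM in mutant pools. Its mutant values lay close together, with a highest value 1.22 times the lowest, and WT2 fell among them. Means of 6.85 ± 3.64 and 10.2 ± 1.01 CPM gave a log2 fold change of 0.55 ± 0.40 (edgeR adjusted *P* = 0.752), which was 0.21 ± 0.18 without WT1 and 1.01 ± 0.31 without WT2.

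*Hoxa3*, which is needed for the thymus and parathyroid and other derivatives of the third arch and pouch, was a low gene, with 8, 49 and 30 counted reads in WT and 28, 39 and 53 in mutant pools. This was 0.220, 0.834 and 0.811 CPM in WT and 0.663, 0.513 and 0.797 CPM in mutant pools. The WT1 value had an exact Poisson interval of 0.0949 to 0.433 CPM (95%, counting error only), which did not reach the other 5 values. It did overlap the interval of Het2, 0.365 to 0.701 CPM. The log2 fold change was 0.04 ± 0.42 (edgeR adjusted *P* = 0.989), and leaving out WT1 turned it to -0.33 ± 0.26. Without WT2 it was 0.34 ± 0.49.

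*Hoxd3* varied the most of the 8 genes. It had 5, 262 and 22 counted reads in WT1, WT2 and WT3 and 56, 61 and 174 in Het1, Het2 and Het3, or 0.137, 4.46 and 0.595 CPM and 1.33, 0.802 and 2.62 CPM. WT2 alone held 45.2% of all its reads, a share not scaled for depth. The CPM of *Hoxd3* in WT2 was 32.5 times that of WT1 and 3.62 times that of the other libraries pooled. The means of 1.73 ± 2.38 and 1.58 ± 0.934 CPM gave a log2 fold change of -0.22 ± 1.15 (edgeR adjusted *P* = 0.975). Without WT1 it was -0.75 ± 0.99, and without WT2 it turned to 2.10 ± 0.78 (edgeR adjusted *P* = 0.862 and 0.411).

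*Hoxb4*, the member with the most posterior limit, at the boundary of rhombomeres 6 and 7, was at 0.357, 1.16 and 0.378 CPM in WT and at 0.687, 0.526 and 0.572 CPM in mutant pools. WT2 was again above the other 5 libraries, at 2.23 times their pooled CPM. It held 33.7% of all reads of the gene, a share not scaled for depth. The mutant values fell between the WT values. The means were 0.631 ± 0.456 and 0.595 ± 0.0827 CPM, with a log2 fold change of -0.18 ± 0.44 (edgeR adjusted *P* = 0.931). The sign held without WT1 (-0.46 ± 0.41) and turned without WT2 (0.67 ± 0.30, edgeR adjusted *P* = 0.446).

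The counts of members therefore moved with the WT library left out. WT1 and WT2 were singled out by these same values, as the lowest and the highest WT pool in all 8 genes. Leaving out WT2 thus raises the fold changes and leaving out WT1 lowers them by the choice itself, so the counts below only describe this dependence. Without WT2, the mutant values lay above the 2 remaining WT values in 6 of 8 genes (*Hoxb2*, *Egr2*, *Hoxb1*, *Hoxb3*, *Hoxd3* and *Hoxb4*), where 29.4% of all genes did not overlap in either direction. In that fit 8 of 8 log2 fold changes were positive, with a median of 0.71, and 4 of 8 (*Hoxa2*, *Hoxb1*, *Hoxb3* and *Hoxd3*) passed an unadjusted *P* of 0.05 with edgeR, against 11.4% of all genes, and 0 of 8 passed the adjusted threshold. Without WT1, 4 of 8 log2 fold changes were positive, the median was 0.02, and 0 of 8 passed an unadjusted *P* of 0.05, against 10% of all genes. The groups did not overlap then for 1 gene, *Hoxa3*, whose mutant values lay below both WT values, against 28.3% of all genes.

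**Figure D2:**
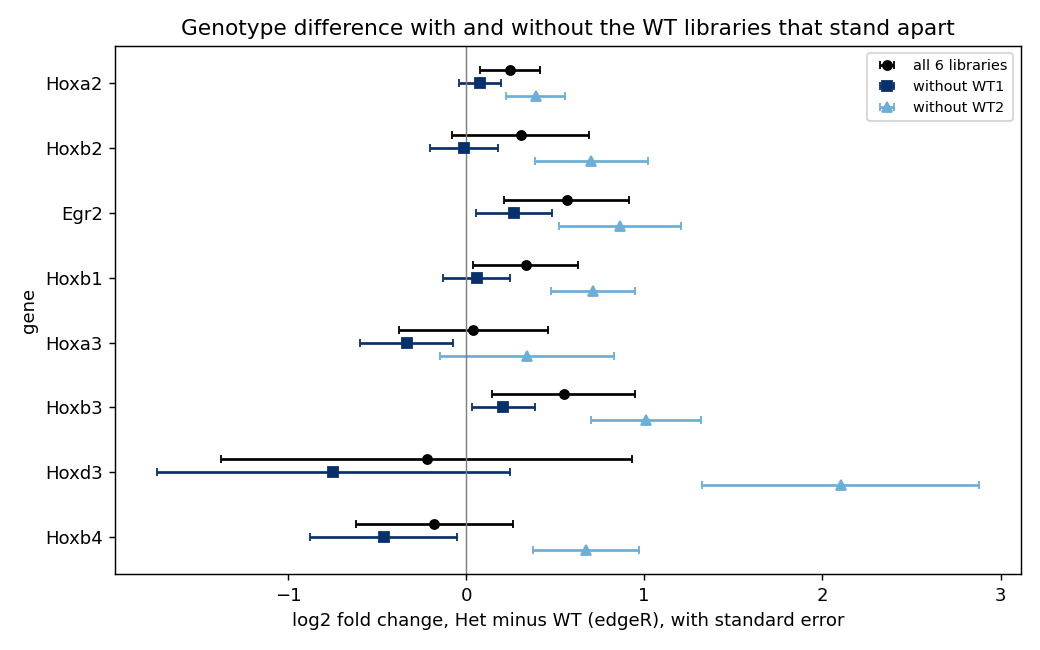
Log2 fold change of each gene, Het minus WT, from edgeR with its standard error, with all 6 libraries (black circles), without WT1 (dark squares) and without WT2 (light triangles). WT2 was the highest WT pool for every gene, so the value without WT2 lies to the right of the other 2 throughout, and for *Hoxd3* it is 2.10 in place of -0.22.

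All 8 genes lay below the median of the 6 libraries in WT1 and above it in WT2, while in the other 4 libraries some lay above and some below. On the log2 scale (prior count 2), WT1 lay 0.56 below the median of the 6 libraries for *Hoxa2*, 1.21 below for *Hoxb2* and for *Egr2*, 1.03 below for *Hoxb1*, 1.57 below for *Hoxa3*, 1.59 below for *Hoxb3* and 2.61 below for *Hoxd3*, and 0.57 below for *Hoxb4*. WT2 lay 0.08 to 0.32 above the median for the 6 genes with limits in front of *Hoxd3*, and 2.07 and 1.03 above it for *Hoxd3* and *Hoxb4*. The largest deviations of both libraries were thus in *Hoxd3*. Het3 was the only other library more than 1 log2 unit from the median in any of the 8 genes, at 1.31 above it for *Hoxd3*. Counts of *Hoxb2* were 0.667 times those of *Hoxa2* in WT1 and 1.24 times in WT2, with 0.979 to 1.15 in the other 4 libraries.

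**Figure D3:**
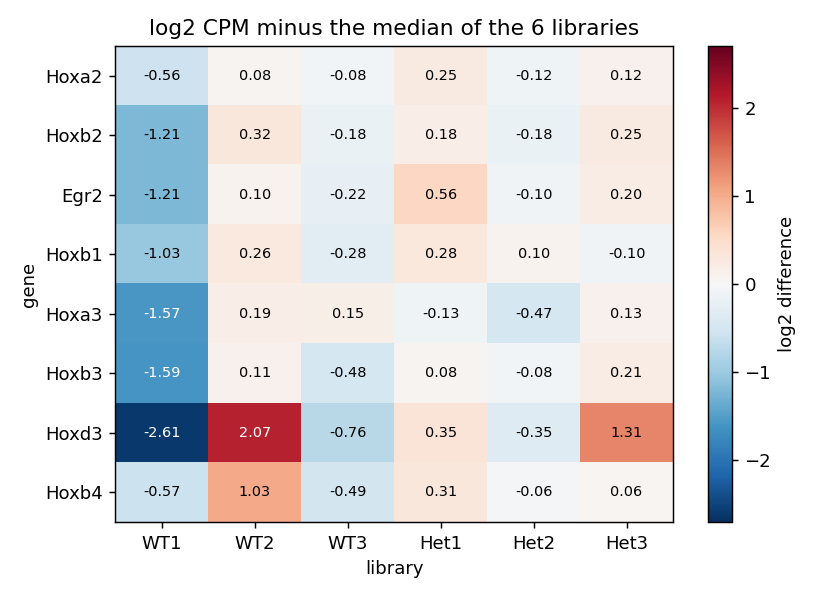
Difference of each library's log2 CPM from the median of the 6 libraries, for each gene in the order of anterior limits (blue below, red above). The WT1 column is negative throughout, from -0.56 to -2.61, and WT2 reaches 2.07 for *Hoxd3* and 1.03 for *Hoxb4*.

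Between genes, levels were compared as CPM per kb of annotated exon. *Hoxa2* was the highest of the 8 in each of the 6 libraries, with a mean of 6.11 CPM per kb. *Hoxb2* (3.20) and *Egr2* (3.10) followed and were not separated, since *Hoxb2* was the higher of them in 4 of 6 libraries. *Hoxb3* (2.00) and *Hoxb1* (1.40) came next, each below its neighbour in 6 of 6 libraries. *Hoxd3* (0.395) and *Hoxb4* (0.239) changed places between libraries, with *Hoxd3* higher in 3 of 6, and *Hoxa3* (0.106) was the lowest on average. The annotated exons of *Hoxa3* sum to 6.01 kb, the most of the 8, and include distant first exons, which lowers its value on this scale. Shared exons could lower the value of *Hoxd3* too (62.3% shared on the same strand). *Hoxb3* shares 52.9% on the opposite strand with *Hoxb3os*, which was not among the counted symbols. The direction of any effect on *Hoxb3* is therefore not known. Lengths are from Gencode M21, while the counts were annotated with Gencode M2.

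The other Hox genes place these levels along the axis. Of 39 Hox genes, 4 had no read in any library and 9 passed the filter, the 7 members and 2 of the other 32, among them *Hoxa10*. The 7 members held 80.1% of all Hox reads in WT2 and 89.3% to 94.0% in the other 5 libraries. Summed over paralog groups 1 to 3, Hox levels were 18.5, 53.1 and 33.5 CPM in WT pools and 44.0, 35.7 and 46.4 CPM in mutant pools, with WT1 the lowest and WT2 the highest. Group 4, whose genes begin in the caudal hindbrain, summed to 4.38 CPM in WT2 and to 0.357 to 0.805 CPM in the other 5 libraries. Groups 5 to 9, mostly genes of the trunk, summed to 0.954 CPM in WT2 and 0.361 to 0.494 CPM in the others, and no gene of these groups had more than 12 reads in a library.

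*Hoxd4*, the neighbour of *Hoxd3* with which it shares exons, had 153 reads in WT2 and 10 in the other 5 libraries together, a level 67.3 times as high. *Hoxc4* had 24 reads in WT2 and 6 in the other 5 libraries. In groups 10 to 13 the order of libraries was another one: the sums were 0.879, 0.477 and 0.0811 CPM in WT pools and 1.54, 0.645 and 0.0903 CPM in mutant pools. *Hoxa10* was highest in Het1, at 0.639 CPM, and had no read in WT3, which allows up to 0.0811 CPM (3 reads).

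**Figure D4:**
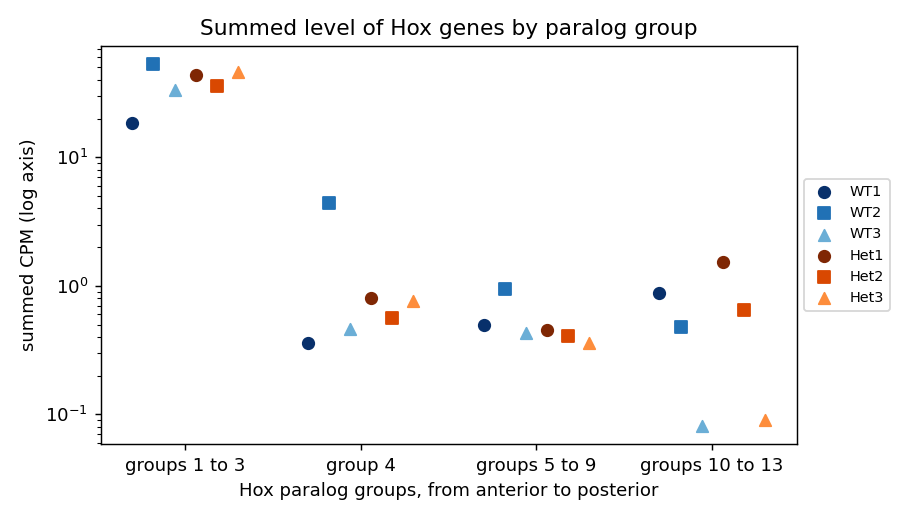
Summed CPM of the Hox genes of paralog groups 1 to 3, 4, 5 to 9 and 10 to 13 in each library, on a log axis. WT1 is the lowest library for groups 1 to 3 and for group 4, and WT2 is the highest for groups 1 to 3, group 4 and groups 5 to 9.

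Markers of the tissues that a dissected head can hold moved with the libraries as well, and their part in the Hox values was not tested. All 6 forebrain and midbrain markers were detected in every library, as the label of the tissue says, and their sum was 242 CPM in WT1 against 179 to 197 CPM in the other 5 libraries. *Otx2*, a gene of the forebrain and midbrain, was at 141 CPM in WT1 and at 105 to 117 CPM elsewhere. WT1 was the highest library for 4 of the 6, and not for *En1* (27.4 CPM, against 29.0 CPM in Het1) or *Hesx1* (5.55 CPM, within the 4.59 to 7.53 CPM of the others). The 5 markers of pharyngeal endoderm summed to 19.4 CPM in WT1 and 28.9 to 31.4 CPM in the others, and the 5 neural crest markers to 148 CPM in WT1 and 182 to 200.04 CPM in the others. Of these, 4 of the 5 endoderm markers and 2 of the 5 crest markers were lowest in WT1. Heart markers were the most uneven of the lists, with sums of 4.83, 38.4 and 26.1 CPM in WT and 18.0, 37.2 and 63.1 CPM in mutant pools. The 7 somite markers summed to 18.3 CPM in WT1, 33.2 CPM in WT2 and 21.3 to 24.6 CPM in the other 4 libraries, and *Meox1*, an early somite gene, was at 1.35 CPM in WT1 and 9.78 CPM in WT2. Of these 7, 3 were lowest in WT1 and 5 were highest in WT2.

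In the remaining lists WT1 was the library outside the range of the others. Neural tube markers summed to 437 CPM in WT1 and 343 to 362 CPM in the other 5 libraries, and otic markers to 46.1 CPM in WT1 and 53.5 to 63.1 CPM in the others. All 5 neural tube markers were highest in WT1. Of the 4 tested otic markers, 3 were lowest in WT1 and 1 was highest there. Posterior axis markers were also highest in WT1, the library lowest in all 8 members, at 21.2 CPM against 16.6 to 18.6 CPM, although 2 of the 4 tested genes of that list were lowest in WT1 and 1 was highest. Of the posterior axis genes, *Cdx4* had no read in 4 libraries and *Cdx2* stayed at or under 0.102 CPM. No gene of the 8 marker lists passed an adjusted *P* of 0.05 with edgeR.

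**Figure D5:**
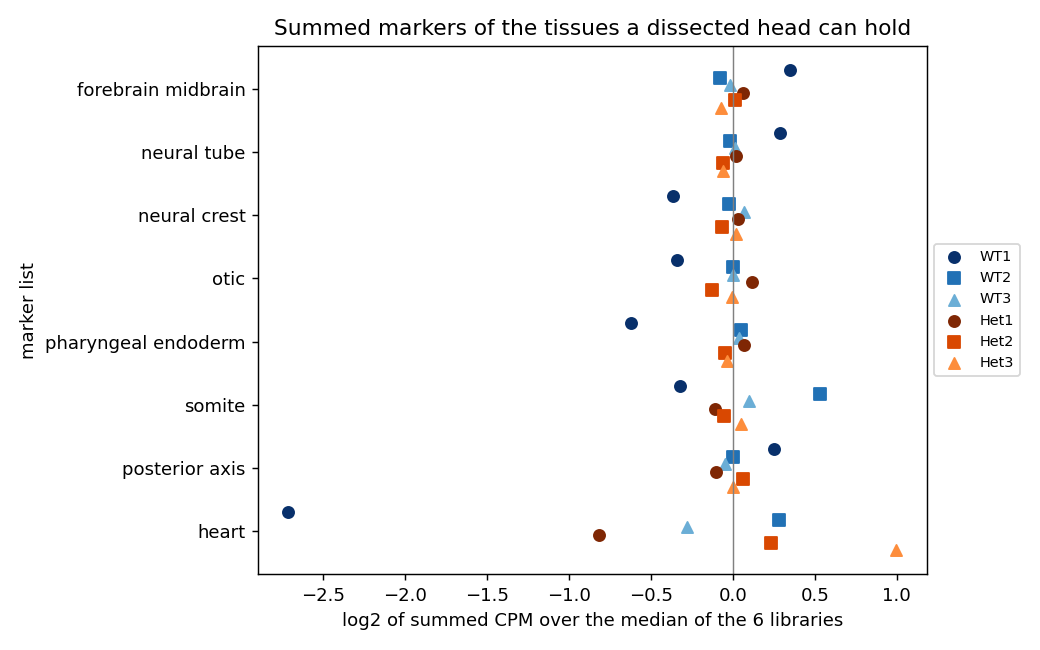
Summed CPM of each marker list in each library, as log2 of its ratio to the median of the 6 libraries. WT1 is above the median for forebrain and midbrain and for neural tube markers and far below it for heart markers (-2.71), and WT2 is the highest library for somite markers (0.53).

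With the mean log2 CPM of the somite markers as a covariate, the median log2 fold change of the 8 genes was 0.64, and 6 of 8 passed an unadjusted *P* of 0.05 with edgeR, against 11.4% of all genes. *Hoxd3* was then at 1.84 ± 0.27 and *Hoxb3* at 0.96 ± 0.16 (edgeR adjusted *P* = 0.158 and 0.176), and 0 of 8 passed the adjusted threshold. With the Hox genes of groups 5 to 9 as the covariate, the median was 0.70 and 2 of 8, *Hoxb1* and *Hoxb4*, passed an unadjusted *P* of 0.05, against 10.8% of all genes. WT2 had the highest value of both covariates, which come from the same libraries as the genes they adjust. The Hox covariate, made of genes with few reads, was at -3.57 in WT2 and at -4.12 to -4.01 elsewhere. It thus mainly set WT2 apart, and the fit came close to the one without WT2 (median 0.71).

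Genes that act beside the members in hindbrain segmentation gave no call either. Of 24 listed genes, 23 were tested, 14 were higher and 9 lower in mutants, and 0 passed an adjusted *P* of 0.05 with edgeR. *Epha4*, a target of *Egr2* that keeps rhombomere cells apart, was at 119 CPM in WT1 and at 135 to 147 CPM in the other 5 libraries (log2 fold change 0.10 ± 0.06, edgeR adjusted *P* = 0.693). *Gbx2*, which sets the front edge of the hindbrain, had a log2 fold change of 0.05 ± 0.27. *Cdx1*, an activator of more posterior Hox genes, was at 0.663 to 1.65 CPM.

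The mutant values lay outside the WT range for 5 of these 23 genes, against 15.2% of all genes, and these 5 had an unadjusted *P* under 0.05 with edgeR. *Fgf3*, a signal made by the hindbrain next to the ear placode, was at 3.24, 4.73 and 3.70 CPM in WT and at 6.68, 4.74 and 5.07 CPM in mutant pools, so that WT2 and Het2 were almost level (log2 fold change 0.48 ± 0.18, edgeR adjusted *P* = 0.515). *Gbx1* was at 0.961 to 1.41 CPM in WT and 1.4997 to 1.63 CPM in mutant pools (0.45 ± 0.19, adjusted *P* = 0.566). *Efnb3*, an ephrin, and *Lfng*, a modulator of Notch signaling, were at -0.25 ± 0.08 and -0.15 ± 0.06, and WT1 was the highest library for both (edgeR adjusted *P* = 0.465 and 0.581).

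Hox proteins bind DNA with Pbx and Meis cofactors, and 0 of the 9 tested cofactor genes passed the adjusted threshold of edgeR. *Meis1* and *Meis2* had log2 fold changes of 0.02 ± 0.06 and 0.00 ± 0.06. The 14 tested genes of the Polycomb and Trithorax complexes, which hold Hox clusters silent or active, gave log2 fold changes of -0.12 to 0.04, and 0 passed.

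Retinoic acid, made by *Aldh1a2* in the trunk and broken down by the Cyp26 enzymes further forward, sets the anterior limits of many Hox genes. Of the 12 genes of this list, 0 passed the adjusted threshold of edgeR, with 7 higher and 5 lower in mutants, and the groups did not overlap for 4 of 12 (1 higher, 3 lower), against 15.2% of all genes. *Aldh1a2* was at 6.56, 8.19 and 3.27 CPM in WT and at 10.5, 7.84 and 6.44 CPM in mutant pools (0.44 ± 0.35, edgeR adjusted *P* = 0.774). *Cyp26c1* was at 40.9 to 50.2 CPM in WT and 50.8 to 62.3 CPM in mutant pools, with the mutant values just above the WT range (0.23 ± 0.10, adjusted *P* = 0.603), and *Cyp26b1* was at 8.90 to 19.4 and 17.9 to 22.9 CPM (0.54 ± 0.28, adjusted *P* = 0.669). *Rarb*, a receptor gene that retinoic acid itself induces, was at -0.02 ± 0.13 on the same scale. *Crabp2*, a carrier of retinoic acid, was at 297 to 318 CPM in WT and 281 to 286 CPM in mutant pools (-0.11 ± 0.04, edgeR adjusted *P* = 0.478), without overlap.

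Noncoding transcripts of the Hox clusters were measured for 15 of the 16 on the list, and 4 passed the filter. *Hotairm1*, a noncoding RNA of the HoxA cluster, was at 0.330, 2.26 and 1.00 CPM in WT and at 0.876, 0.789 and 1.43 CPM in mutant pools, again lowest in WT1 and highest in WT2 (-0.27 ± 0.62, edgeR adjusted *P* = 0.925). *Hoxaas2*, which overlaps *Hoxa3* in antisense, was at 1.79, 3.54 and 2.68 CPM in WT and at 4.40, 2.71 and 3.55 CPM in mutant pools. Without the strand setting, reads of the overlap cannot be assigned to either gene with certainty.

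Many genes outside the list had the same profile over the 6 libraries as the mean of the 8 genes. Pearson's r, given only as a description of 6 points that share library and depth and of which WT1 lies far from the rest, was above 0.9 for 300 of 15576 genes (1.93%). The 10 genes most alike were *Fam117a* (r = 0.998), *Klhl2* (0.994), *Pofut2*, *Sdf4*, *Artn*, *Srms*, *Slc35f2*, *Ankle2*, *Nfil3* and *Syde2* (0.983). The range of *Fam117a* was narrow, 29.9 CPM in WT1 and 34.0 CPM in WT2, where the 8 genes differed by more between these libraries. Among the listed genes, *Epha2* (0.967), *Rara* (0.962) and *Cyp26a1* (0.945) were the most alike.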

How the data were processed

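RNA of 6 pools of E9.0 heads, 3 per genotype, was sequenced after depletion of ribosomal RNA with a stranded kit. Raw counts per gene symbol were deposited, which the authors made from trimmed reads mapped to mm10 with STAR and annotated with Gencode M2; their methods name HTSeq as the counter and the submitters' processing notes name featureCounts, and no strand setting is given in the sources used here. All 6 columns were mapped to samples by their labels, and 0 were left over. The mutant columns are headed Het4, Het5 and Het6, and the names Het1, Het2 and Het3 follow the replicate numbers of the titles. Libraries held 36378803 to 74909774 counted reads, and no library was a copy of another (scaled chi-square at least 10.2 per degree of freedom). Intervals and floors cover counting error only. The heads within a pool came from different litters, and whether pools shared litters is not stated. *P*-values measure the spread between these pools.

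Differential expression was tested in R 4.3.3 with edgeR 4.0.16, TMM scaling, filterByExpr by genotype (15584 of 24421 genes kept) and a two-sided robust quasi-likelihood test, Het against WT, with Benjamini-Hochberg adjustment over all tested genes and a threshold of 0.05. The 8 members were read from that fit. The SE given with an edgeR log2 fold change is its absolute value divided by the square root of the test's F statistic. It was thus derived from the test and not estimated separately. CPM uses TMM-scaled library sizes, and log2 CPM a prior count of 2. Exon lengths and overlaps come from Gencode M21, and promoter windows from RefSeq. The alternatives were DESeq2 (version 1.42.0), other scalings and filters, the replicate number as a block, 2 tissue covariates and each library left out. The scripts were tested on simulated counts. Figures were drawn with matplotlib (version 3.10.9).

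The members, lists and tests were chosen with earlier results of these data known. The genes named are the 8 members, *Snrpb*, the other Hox genes that passed the filter (the highest of each paralog group), 15 genes fixed by name, genes of the hindbrain, cofactor, retinoic acid, chromatin and noncoding lists with an unadjusted *P* under 0.05 and groups without overlap, and the 10 genes most like the members. *Hoxd4*, *Hoxc4*, *Otx2*, *En1*, *Hesx1*, *Meox1*, *Cdx2*, *Cdx4*, *Hoxaas2*, *Epha2*, *Rara* and *Cyp26a1* were named after their values were seen. Some genes that the rule covers are not reported here. Counts of members without overlap with a library left out were added after seeing the data.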

Additional observations from a re-analysis of the deposited data

How the results depend on the processing

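With all 6 libraries kept, no alternative brought any of the 8 genes past the adjusted threshold (DESeq2 gave *Hoxa3* and *Hoxb4* no adjusted *P*), and the median log2 fold change of the members stayed between 0.27 and 0.70. A minimum of 10 counts in every library left 6 of the 8 to test, without *Hoxa3* and *Hoxd3*. With a library left out it was 0.02 (without WT1) to 0.71 (without WT2). The number of genes past the adjusted threshold, 1 in the reported fit, was 84 with DESeq2, 11 with no filter, 2 with the somite marker covariate and 0 with the covariate of Hox groups 5 to 9, and 0 to 6 with a library left out. Members past an unadjusted *P* of 0.05, 0 as reported, were 6 with the somite marker covariate, 2 with the Hox covariate and 0 to 4 with a library left out, and members without overlap numbered 0 to 6 with a library left out. Of the 10 genes most like the members, 4 remained with library size in place of TMM.

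Signs turned for *Hoxd3* (1.84 with the somite marker covariate, 1.93 with the Hox covariate, 0.13 without Het2, and a range of -0.82 to 2.10, the highest without WT2, with a library left out), for *Hoxb4* (0.39 and 0.71 with the covariates, and -0.46 without WT1 to 0.67 without WT2), for *Hoxa3* (-0.33 without WT1, -0.14 without Het3, with a range up to 0.34) and for *Hoxb2* (-0.012 without WT1, up to 0.70 without WT2). The cause was not tested beyond leaving out the library.

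With the replicate number as a block, *Hoxd3* was at 0.35 ± 1.56 (edgeR adjusted *P* = 0.975), the median of the members was 0.37, and 1 gene passed, as without the block. Deviations of libraries with the same replicate number in the titles correlated at 0.169, 0.0317 and 0.360. WT1 and WT3 each correlated best with the mutant library of the same number. WT2 correlated at 0.0386 with Het1, close to its 0.0317 with Het2. The numbers were not taken as pairs in the reported fit, since no pairing is stated.

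Depth limited *Hoxd4*, *Hoxc4* and the genes of groups 5 to 9, where 3 reads correspond to 0.0395 to 0.0824 CPM. The standard errors of the members' log2 fold changes ran from 0.17 to 1.15.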
